A study of Mus musculus with 39 samples.

Results

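The effect of losing glycine N-methyltransferase (GNMT) on liver gene expression was followed from livers labelled as non-alcoholic steatohepatitis to livers labelled as hepatocellular carcinoma. All 4 groups of the GNMT cohort were used, which makes 19 of the 39 arrays of the series, and 18194 genes were measured on each. The groups were GNMT knockouts of 8 months (n = 4, labelled hepatocellular carcinoma), wild types of 8 months (n = 5, healthy), GNMT knockouts of 3 months (n = 5, labelled non-alcoholic steatohepatitis) and wild types of 3 months (n = 5, healthy). All mice were C57B6SJL, all samples were total RNA of liver on 1 type of Affymetrix mouse genome array, and no treatment is labelled. The labels name no promoter or cell type for the deletion and do not say how the knockout was made. Knockout arrays are labelled as biological replicates, while wild type arrays are labelled only as replicates, so that p-values measure the spread between these samples, which may be partly technical. The labels do not say which share of a liver of 8 months was tumour, and age cannot be told apart from when the arrays were run.

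GNMT uses S-adenosylmethionine to methylate glycine to sarcosine and is abundant in hepatocytes, where it uses up excess S-adenosylmethionine. MAT1A makes S-adenosylmethionine in the adult liver. Without GNMT the liver accumulates S-adenosylmethionine, the methyl donor for DNA, histones and phospholipids, and mice develop fatty liver, inflammation and later tumours. Non-alcoholic steatohepatitis is fat storage with inflammation and cell damage, and hepatocellular carcinoma is the cancer that arises from hepatocytes.

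For every gene the knockout effect, which is the mean log2 value in knockouts minus that in wild types of the same age, was computed at 8 and at 3 months, and the difference of the effects is the effect at 8 months minus that at 3 months. An effect or difference was called when limma gave an adjusted p under 0.05 over all 18194 genes. A gene was sorted as gained if the difference and the effect at 8 months were called but not the effect at 3 months, and as lost if the difference and the effect at 3 months were called but not the effect at 8 months. It was reversed if the difference and both effects were called with opposite signs, and kept if both effects were called with the same sign and the difference was not. Values after ± are standard errors of the fit, unless SD is given.

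Values of the GNMT arrays had medians of 4.154 to 4.326 on the log2 scale. The range between the quartiles of an array was 3.17 to 3.32 in knockouts of 8 months, 2.86 to 3.15 in wild types of 8 months, 2.82 to 2.98 in knockouts of 3 months and 2.70 to 2.84 in wild types of 3 months, so that the knockouts of 8 months had the widest distributions. Within that group replicates 1 and 2 differed from replicates 3 and 4 for many of the genes below. Of 46 hepatocyte genes, such as the transcription factor Hnf4a (knockout effect -0.35 ± 0.10 at 8 months, adjusted p = 0.0162, and -0.08 ± 0.10 at 3 months, adjusted p = 0.626), the summed level had a log2 value of 17.67 to 17.85 in knockouts of 8 months, 17.86 to 17.95 in wild types of 8 months, 17.79 to 17.90 in knockouts of 3 months and 17.96 to 18.03 in wild types of 3 months, so all groups carried a strong hepatocyte signal. The summed level was lower in all knockouts than in the wild types of their age. At 8 months 17 of the 46 genes were called lower and 1 higher in knockouts (all genes 10.7% and 16.9%). At 3 months 15 were called lower and 1 higher (all genes 4.93% and 7.37%). RNA came from whole tissue, so fewer cells of a type and less RNA per cell cannot be told apart in any result below. The effect of Hnf4a at 8 months was not called with quantile normalization, with the arrays of 8 months fitted alone, or without replicate 1 or replicate 4 of the knockouts of 8 months (adjusted p = 0.0862, 0.0526, 0.0665 and 0.0528).

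Gnmt itself (GRCm38.p6, chr17:46725664-46729211) followed the labels on every array. Gnmt read 7.89, 8.89, 9.39 and 8.81 in the knockouts of 8 months and 13.55, 13.40, 13.57, 13.54 and 13.44 in the wild types of 8 months. At 3 months Gnmt read 10.28, 10.11, 10.73, 9.91 and 9.87 in the knockouts and 13.58, 13.48, 13.49, 13.56 and 13.51 in the wild types. The groups did not overlap at either age. The effect was -4.75 ± 0.21 at 8 months (adjusted p = 2.21e-11) and -3.34 ± 0.20 at 3 months (adjusted p = 6.2e-09). The signal left in knockouts was lower at 8 than at 3 months by 1.43 (adjusted p = 3.39e-05), while in wild types it differed by -0.03 ± 0.20 between the ages (adjusted p = 0.934). Mat1a, the enzyme upstream, read 11.53, 11.58, 12.85 and 12.48 in the knockouts of 8 months and 12.91, 12.87, 13.05, 12.90 and 13.15 in the wild types of 8 months. In the younger mice Mat1a read 13.17, 13.07, 13.10, 12.98 and 12.96 in knockouts and 12.89, 12.42, 12.73, 12.68 and 12.75 in wild types. The knockouts lay below all wild types at 8 months and above all of them at 3 months, but only the effect at 8 months was called, so Mat1a was a gained effect (-0.86 ± 0.20, adjusted p = 0.0024, against 0.36 ± 0.19, adjusted p = 0.217). Fitted on the arrays of 3 months alone, the effect of 0.36 for Mat1a was called (adjusted p = 0.0196), which makes it reversed.

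The knockout effect was larger in extent in livers of 8 months. At 8 months 3078 genes were called higher and 1939 lower in knockouts (16.9% and 10.7% of all genes), and at 3 months 1341 were called higher and 897 lower (7.37% and 4.93%). The difference of the effects was called for 3019 genes, of which 1738 moved to higher (9.55%) and 1281 to lower (7.04%). Among these 2121 effects were gained, 420 lost and 172 reversed, 95 grew with the same sign, 12 shrank with the same sign, and for 199 the difference was called but neither effect was. Besides, 716 effects were kept. The sort left 1901 genes called only at 8 months and 823 called only at 3 months without a called difference, which are neither gained nor lost by this rule. The count of reversed effects depended on 1 array, since it was 267 without replicate 3 of the knockouts of 8 months. The last gene called for its difference was Tsc22d2 (-1.27, adjusted p = 0.04991) and the first not called was Ndufa10 (-0.4, adjusted p = 0.05002).

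Direction depended on scaling. Of the gained effects 1389 were higher and 732 lower in knockouts of 8 months, of the lost ones 294 were higher and 126 lower in knockouts of 3 months, and of the reversed ones 64 turned to higher and 108 to lower. When every array was centred on its median, the median of all genes was -0.13 for the difference (a shift of -0.139), -0.121 for the effect at 8 months (a shift of -0.0891) and -0.126 for the change of knockouts with age (a shift of -0.0528), and 32.0% of called differences were higher, against 57.6% with the values as deposited. The share of higher calls then was 38.1% at 8 months (61.4% as deposited) and 74.7% at 3 months (59.9% as deposited), and 35.3% for the age change of knockouts (45.6% as deposited) and 63.6% for that of wild types (40.9% as deposited). With centred arrays 960 gained effects were higher and 1388 lower, 511 lost effects were higher and 70 lower, and 37 reversed effects turned to higher and 243 to lower. With quantile normalization of the genes 49.9% of called differences were higher. Counts by direction therefore describe the deposited scale, and the difference of the effects kept its sign in both rescaled versions for the genes described below and for the medians of the lists below. Exceptions were Hsd3b2 and the lists of male-biased, hepatocyte, B cell, adipocyte, pancreas and prostanoid genes, whose differences lie near 0. Of the 109 genes described, 67 had the same class in all of up to 29 alternative settings and 42 changed it in at least 1, as stated beside their values. The minimum change of 1 was not counted, fits of pairs of groups alone took the difference from the fit of all 4 groups, and leaving out replicates 1 and 5 of the wild types of 3 months together was chosen after seeing the data.

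**Figure D1:**
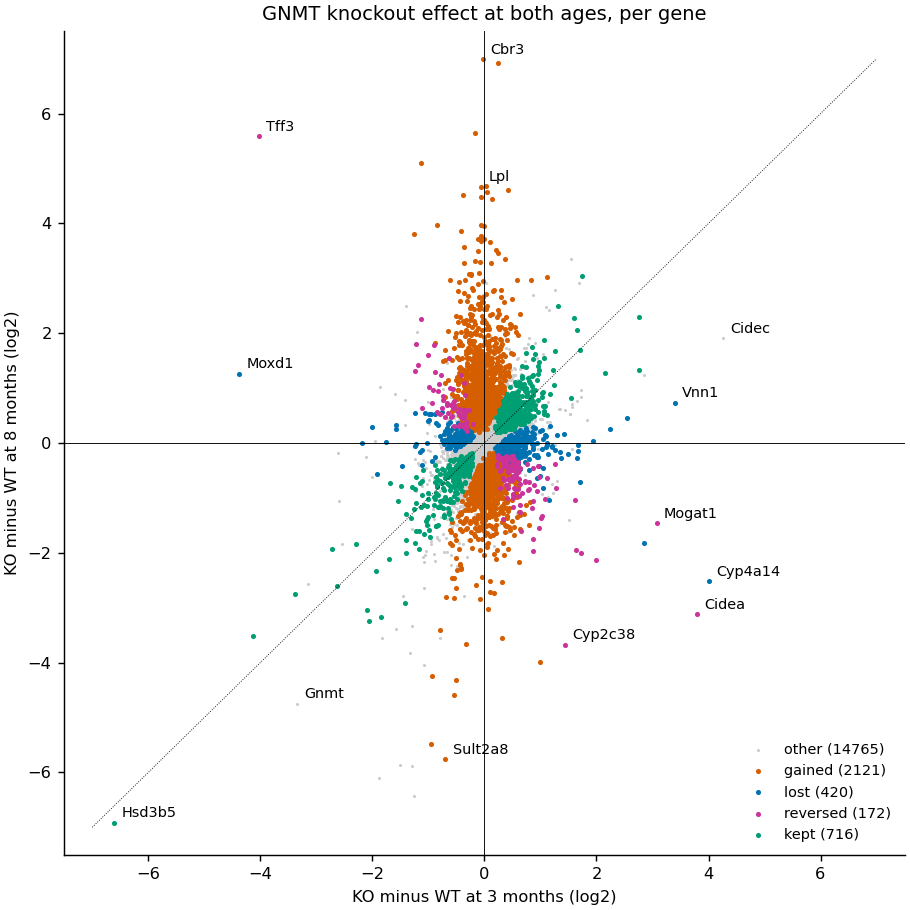
Each point is 1 gene, with the knockout effect at 3 months on the x axis and at 8 months on the y axis (log2), coloured by class, and the dotted line marks equal effects. Gained effects (2121) lie along the vertical axis and lost effects (420) along the horizontal one, kept effects (716) follow the dotted line, and Tff3 and Cidea lie far out in the quadrants of reversed effects (172).

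Of the 4 marker genes of this comparison, Tff3 and Cidea were reversed, Cbr3 was gained and Cyp4a14 was lost. Tff3, a trefoil peptide of mucous epithelia (chr17:31125306-31129611), changed sign between the ages. Tff3 read 12.62, 11.98, 8.38 and 9.11 in the knockouts of 8 months and 5.16, 5.12, 4.86, 4.82 and 4.71 in the wild types of 8 months. At 3 months Tff3 read 5.12, 4.64, 5.48, 5.80 and 7.15 in the knockouts and 10.82, 9.54, 7.75, 8.99 and 11.19 in the wild types. Groups did not overlap at either age, although in the older knockouts replicates 1 and 2 were far above replicates 3 and 4. For Tff3 the knockout effect was 5.59 ± 0.77 at 8 months (adjusted p = 2.16e-05) and -4.02 ± 0.73 at 3 months (adjusted p = 0.00128), a difference of 9.61 ± 1.06 (adjusted p = 7.91e-06). Both baselines moved: with age Tff3 rose by 4.88 in knockouts and fell by 4.73 in wild types, so the change in healthy livers was about as large as that in knockouts. In the wild types of the MAT1A cohort, which the sort did not use, Tff3 fell with age too (-2.0, adjusted p = 0.0226, limma on 10 arrays).

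Cbr3, a carbonyl reductase (chr16:93683219-93690991), had the largest effect at 8 months. Cbr3 read 13.10, 12.63, 8.67 and 11.78 in the knockouts of 8 months and 4.31, 4.75, 4.68, 4.57 and 4.45 in the wild types of 8 months. At 3 months Cbr3 read 4.42, 4.44, 4.31, 4.16 and 4.34 in the knockouts and 3.95, 4.48, 3.94, 4.81 and 4.64 in the wild types. Every knockout of 8 months was above all other arrays, with replicate 3 the lowest of them, and the groups of 3 months overlapped. For Cbr3 the effects were 6.99 ± 0.56 at 8 months (adjusted p = 4.3e-08) and -0.03 ± 0.52 at 3 months (adjusted p = 0.98). Wild types differed by 0.19 ± 0.52 between the ages (adjusted p = 0.803), so the change lay in the knockouts.

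Cidea, a lipid droplet protein of fat-storing cells that lies on chromosome 18, went the opposite way to Tff3. Cidea read 3.38, 4.35, 8.42 and 7.93 in the knockouts of 8 months and 7.93, 9.74, 8.27, 9.27 and 10.50 in the wild types of 8 months. At 3 months Cidea read 7.94, 7.66, 8.18, 9.25 and 5.53 in the knockouts and 5.34, 3.44, 3.75, 3.45 and 3.63 in the wild types. The groups of 8 months overlapped, because replicates 3 and 4 of the knockouts were as high as the wild types and replicates 1 and 2 were low, whereas at 3 months all knockouts exceeded all wild types. For Cidea the effects were -3.12 ± 0.90 at 8 months (adjusted p = 0.0133) and 3.79 ± 0.85 at 3 months (adjusted p = 0.00643). Here the wild types moved, by 5.22 ± 0.85 (adjusted p = 0.000309), while the change of -1.69 ± 0.90 in knockouts was not called (adjusted p = 0.134). The effect at 8 months lost its call without replicate 1 or without replicate 2 of the knockouts (adjusted p = 0.0613 and 0.0557). It was also lost rather than reversed when each pair of groups was fitted alone.

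Cyp4a14 (chr4:115486200-115496158), a fatty acid omega-hydroxylase that PPAR alpha induces, was a lost effect by the sort. Cyp4a14 read 4.47, 4.93, 9.09 and 8.12 in the knockouts of 8 months and 7.40, 7.88, 10.29, 9.51 and 10.75 in the wild types of 8 months. At 3 months Cyp4a14 read 10.68, 5.97, 9.28, 9.73 and 5.99 in the knockouts and 4.66, 4.69, 4.0, 4.35 and 3.88 in the wild types. Knockouts of 8 months were split as for Cidea and overlapped with wild types, and knockouts of 3 months all lay above wild types of 3 months. For Cyp4a14 the effects were -2.51 ± 1.03 at 8 months (adjusted p = 0.0794, 95% interval -4.68 to -0.35) and 4.01 ± 0.98 at 3 months (adjusted p = 0.0106). The interval at 8 months reaches far below 0, and without replicate 3 of these knockouts the effect was called at -3.32 (adjusted p = 0.0225), which makes the gene reversed rather than lost. The wild types rose by 4.85 with age (adjusted p = 0.00142), and those of the MAT1A cohort by 3.66 (adjusted p = 0.0165). With all 39 arrays in the fit it was reversed too.

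**Figure D2:**
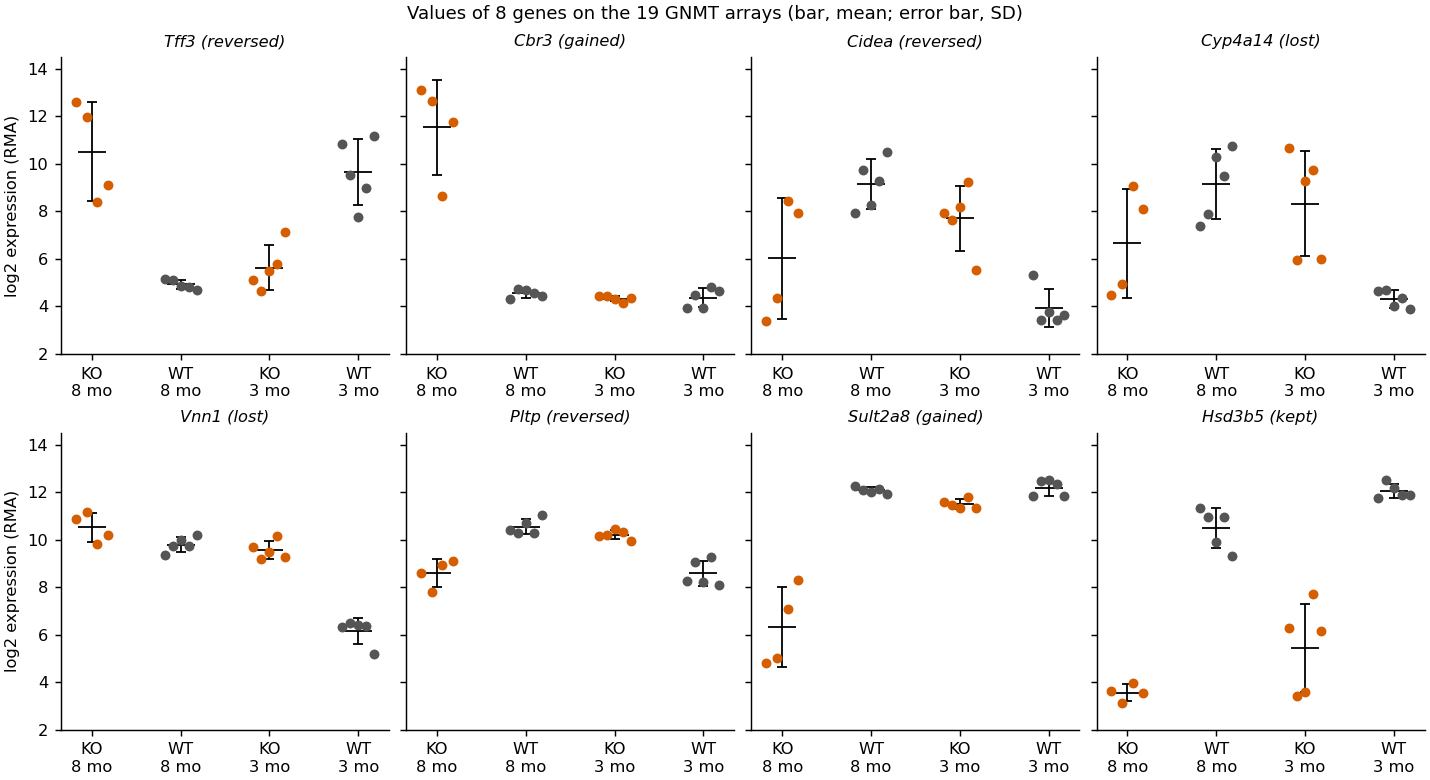
Log2 expression of 8 genes on all 19 GNMT arrays, 1 point per array, in the order knockouts and wild types of 8 months, then knockouts and wild types of 3 months, with mean (bar) and SD (error bar). The wild types of 3 months stand apart from those of 8 months for Tff3, Cidea, Cyp4a14, Vnn1, Pltp and Hsd3b5, whereas for Cbr3 and Sult2a8 the knockouts of 8 months lie far from all other arrays.

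Genes of cell division formed the largest block of gained effects among the lists. Of 65 measured cell cycle genes 50 had a called difference to higher and 1 to lower, and 47 were gained. The median effect of the list was 0.849 at 8 months and -0.105 at 3 months (all genes -0.0322 and -0.0281). Birc5, the survivin protein of the chromosomal passenger complex, is an example. Birc5 read 6.72, 5.93, 6.50 and 7.37 in the knockouts of 8 months and 3.51, 3.31, 3.02, 3.40 and 3.54 in the wild types of 8 months. At 3 months Birc5 read 4.05, 3.52, 3.56, 3.78 and 4.31 in the knockouts and 3.92, 3.46, 3.34, 3.78 and 4.12 in the wild types. Knockouts of 8 months were above every other array and the groups of 3 months overlapped (3.28 ± 0.23, adjusted p = 1.14e-08, against 0.12 ± 0.22, adjusted p = 0.764). Cdk1, the kinase that drives mitosis, read 8.39, 7.42, 8.06 and 9.21 in knockouts of 8 months and 5.40, 5.59, 5.09, 5.66 and 5.72 in wild types of 8 months. Its values at 3 months were 5.24, 5.13, 5.36, 5.52 and 6.05 in knockouts and 6.26, 5.92, 5.78, 6.36 and 5.34 in wild types, which overlapped, and the difference of the effects was 3.25 ± 0.38 (adjusted p = 1.52e-05). Cdc20, which activates the anaphase-promoting complex, had effects of 2.59 ± 0.24 and -0.44 ± 0.23, but its brightest probe set alone gave a difference of 0.46 that was not called (adjusted p = 0.253). Aurkb, a mitotic kinase, gained 1.21 ± 0.11 at a level near or below the median of the arrays. With each pair of groups fitted alone Cdc20 was reversed.

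The windows around the start sites of Cdc20 and Cdk1 are shown because both genes belong to this block and carry a pair of motifs known from cell cycle promoters. Sequences are from RefSeq on GRCm38.p6, 250 bases before to 50 after the start, in the direction of the gene, with matches to CCAAT and TTTGAA on either strand in capitals (Cdc20 chr4:118437294-118437593, minus strand; Cdk1 chr10:69352863-69353162, minus strand).
Cdc20: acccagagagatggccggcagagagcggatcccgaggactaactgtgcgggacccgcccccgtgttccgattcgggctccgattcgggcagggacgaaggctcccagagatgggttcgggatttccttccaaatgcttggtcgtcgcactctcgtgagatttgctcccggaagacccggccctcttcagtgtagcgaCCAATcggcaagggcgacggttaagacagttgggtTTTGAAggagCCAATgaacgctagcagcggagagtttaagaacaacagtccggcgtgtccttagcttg
Cdk1: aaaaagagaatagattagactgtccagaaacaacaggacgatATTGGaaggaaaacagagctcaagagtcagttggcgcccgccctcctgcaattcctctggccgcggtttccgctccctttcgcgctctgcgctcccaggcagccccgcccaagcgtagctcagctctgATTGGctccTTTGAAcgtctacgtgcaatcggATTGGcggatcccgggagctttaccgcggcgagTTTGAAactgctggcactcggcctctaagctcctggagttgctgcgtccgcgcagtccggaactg
In the Cdc20 window CCAAT begins at -53 and -8 relative to the start and TTTGAA at -18. Cdk1 has the CCAAT box in reverse, as ATTGG, at -208, -80 and -48, and TTTGAA at -71 and -15. The motifs share no bases. Among cell cycle genes with a window, 41 of 55 hold CCAAT (74.5%) and 27 of 55 hold TTTGAA (49.1%), against 38.2% and 13.4% of all 14369 windows. A match is a description of the letters and no evidence of binding.

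Extracellular matrix and scar genes were gained as well. Of 42 measured, 26 had a called difference, all to higher, and 23 were gained, with medians of 0.839 at 8 months and -0.139 at 3 months. Col4a1, a basement membrane collagen chain, showed little spread within groups. Col4a1 read 9.40, 9.60, 9.38 and 9.84 in the knockouts of 8 months and 7.59, 7.77, 8.01, 7.30 and 7.96 in the wild types of 8 months. At 3 months Col4a1 read 6.59, 6.54, 6.75, 6.58 and 7.03 in the knockouts and 7.11, 6.51, 6.87, 6.97 and 7.10 in the wild types. Knockouts of 8 months exceeded all other arrays (1.83 ± 0.15, adjusted p = 7.72e-08), while the effect at 3 months was -0.21 ± 0.14 (adjusted p = 0.363). Its partner chain Col4a2, which is transcribed next to it, gained 1.69 ± 0.17, and in both genes the wild types also rose with age, by 0.82 and 0.89. Pdgfrb, the growth factor receptor of stellate cells and pericytes, gained 1.41 ± 0.17 (adjusted p = 6.18e-06). The summed level of 27 markers of stellate cells and fibroblasts had a log2 value of 11.32 to 12.40 in knockouts of 8 months, 11.18 to 11.62 in wild types of 8 months, 10.99 to 11.16 in knockouts of 3 months and 10.86 to 11.36 in wild types of 3 months, with 7 members moving to higher and 3 to lower. Its part in the matrix result was not tested.

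Interferon responsive genes were higher in the older knockouts. Of 39 measured, 33 were called higher at 8 months and none lower, whereas 1 was called higher and 5 lower at 3 months. For 29 of the 39 the difference was called, always to higher, with 23 gained and 5 reversed, and the median effect was 0.882 at 8 months and -0.307 at 3 months. Oas1a, a sensor of double-stranded RNA, illustrates the gained ones. Oas1a read 8.23, 8.62, 7.61 and 8.43 in the knockouts of 8 months and 6.08, 6.17, 6.42, 6.46 and 6.22 in the wild types of 8 months. At 3 months Oas1a read 6.23, 6.29, 5.75, 6.15 and 6.90 in the knockouts and 6.58, 6.89, 6.30, 6.68 and 6.65 in the wild types. Groups of 8 months were apart and groups of 3 months overlapped (1.95 ± 0.20, adjusted p = 7.52e-07, against -0.36 ± 0.19, adjusted p = 0.231). Ifi47, a GTPase induced by interferon gamma, was reversed. Ifi47 read 10.42, 9.53, 8.71 and 9.49 in the knockouts of 8 months and 8.0, 7.81, 7.78, 7.57 and 7.47 in the wild types of 8 months. At 3 months Ifi47 read 7.61, 7.72, 7.82, 7.95 and 8.03 in the knockouts and 9.18, 9.35, 8.70, 8.77 and 9.26 in the wild types. It did not overlap between genotypes at either age, and its effects were 1.81 ± 0.23 (adjusted p = 9.09e-06) and -1.22 ± 0.22 (adjusted p = 0.00108). The knockouts rose by 1.71 with age and the wild types fell by 1.32. Ifit1, which binds foreign RNA, and Irgm1, a GTPase of cell-autonomous immunity, were reversed too (1.23 ± 0.26 against -0.77 ± 0.24 and 0.74 ± 0.17 against -0.56 ± 0.16), with overlapping groups at 8 months. Of Ifi27 and Iigp1 the effects at 8 months were 1.15 ± 0.14 and 0.87 ± 0.11. The reversed class of Ifit1 held in 17 of 29 alternative settings, since its effect at 3 months was not called in the other 12, among them the replicate block (adjusted p = 0.074), centred arrays (adjusted p = 0.0579) and 10 single arrays left out. For Irgm1 this was so in 4 settings, namely without replicate 5 of the wild types, without replicate 1 or 2 of the knockouts, and without replicates 1 and 5 of the wild types of 3 months. Ifi27 was reversed rather than gained in 8 settings, among them the replicate block, quantile normalization and 3 single arrays left out (replicate 5 of the wild types of 8 months, replicate 2 of the knockouts and replicate 5 of the wild types of 3 months).

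The start site windows of a gained and a pair of reversed interferon genes are given for comparison, with matches to GAAANNGAA on either strand in capitals, where neighbouring matches run into one another (Oas1a chr5:120907476-120907775, minus strand; Ifit1 chr19:34640639-34640938, plus strand; Irgm1 chr11:48871371-48871670, minus strand; RefSeq, GRCm38.p6).
Oas1a: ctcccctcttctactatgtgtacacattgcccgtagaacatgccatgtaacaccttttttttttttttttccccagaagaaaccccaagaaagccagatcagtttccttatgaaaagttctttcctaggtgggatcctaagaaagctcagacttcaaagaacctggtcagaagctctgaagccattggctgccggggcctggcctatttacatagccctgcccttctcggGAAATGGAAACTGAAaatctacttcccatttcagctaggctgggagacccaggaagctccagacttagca
Ifit1: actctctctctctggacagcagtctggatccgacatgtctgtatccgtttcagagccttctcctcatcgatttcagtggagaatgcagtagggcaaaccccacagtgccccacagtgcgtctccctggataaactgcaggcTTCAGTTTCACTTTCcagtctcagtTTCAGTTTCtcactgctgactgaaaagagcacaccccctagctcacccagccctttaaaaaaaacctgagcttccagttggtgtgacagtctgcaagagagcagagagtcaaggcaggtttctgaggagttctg
Irgm1: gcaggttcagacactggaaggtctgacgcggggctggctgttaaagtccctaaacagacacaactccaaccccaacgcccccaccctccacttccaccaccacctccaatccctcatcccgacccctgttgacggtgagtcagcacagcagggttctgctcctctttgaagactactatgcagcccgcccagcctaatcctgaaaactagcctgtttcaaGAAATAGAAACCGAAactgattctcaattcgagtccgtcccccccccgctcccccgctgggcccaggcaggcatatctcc
Matches begin at -20 and -14 relative to the start of Oas1a, at -109, -103 and -84 in Ifit1, where they lie on the other strand, and at -30 and -24 in Irgm1. The motif stands in 15 of 29 interferon windows (51.7%) and in 7.35% of all 14369 windows, which again describes the letters only. In further searches AGGTCA, the core site of nuclear receptors, was in 8 of 29 windows of fatty acid oxidation genes (27.6%, all windows 13.9%), and TCACNCCAC, a sterol element, in 1 of 15 windows of cholesterol genes (6.67%, all windows 1.18%). TGACNNNGC, an antioxidant element, was in 8 of 36 windows of glutathione genes (22.2%, all windows 14.2%). Among list genes with a called difference, AGGTCA was in 3 of 17 windows, the sterol element in 0 of 11 and the antioxidant element in 3 of 17. The interferon element was in 13 of 22 such windows. For cell cycle genes with a called difference CCAAT was in 36 of 45 and TTTGAA in 25 of 45.

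Genes of antigen presentation and markers of macrophages moved along with these genes. Antigen presentation had 7 of 13 members with a called difference, all to higher, among them H2-Aa, a chain of MHC class II (1.96 ± 0.23 at 8 months, adjusted p = 4.57e-06, and -0.25 ± 0.22 at 3 months, adjusted p = 0.514). Of 36 markers of macrophages and Kupffer cells 23 moved to higher and 2 to lower, and 21 were gained. Their summed level had a log2 value of 13.40 to 14.56 in knockouts of 8 months, 12.62 to 13.07 in wild types of 8 months, 12.15 to 13.10 in knockouts of 3 months and 12.75 to 13.38 in wild types of 3 months, so that knockouts were above all wild types at the later age. Its part in the interferon and antigen results was not tested. Lgals3, a lectin of activated macrophages, gained 2.73 ± 0.28 (adjusted p = 9.33e-07), and Mpeg1, a pore protein of macrophages, was reversed (1.61 ± 0.29 against -1.01 ± 0.27). Cd163, the haemoglobin scavenger receptor of resident macrophages, ran against its list. Cd163 read 2.91, 3.41, 2.55 and 2.76 in the knockouts of 8 months and 6.78, 6.62, 6.88, 6.36 and 6.17 in the wild types of 8 months. At 3 months Cd163 read 6.35, 5.79, 6.68, 6.59 and 7.48 in the knockouts and 7.37, 6.0, 6.87, 6.84 and 7.48 in the wild types. It was lower in all knockouts of 8 months than on any other array (-3.66 ± 0.30, adjusted p = 6.05e-08) and overlapped at 3 months. Of 28 T and NK cell markers 6 moved to higher and 1 to lower, but with centred arrays 2 moved to higher and 3 to lower. Of 20 B and plasma cell markers none had a called difference. In knockouts of 8 months 1 of these 20 was called higher and 3 lower. Mpeg1 was gained rather than reversed in 5 settings, which leave out replicate 1, 2 or 4 of the knockouts, replicate 1 of the wild types, or replicates 1 and 5 of the wild types of 3 months.

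Markers of bile duct cells and genes of fetal or malignant liver were gained. Of 22 cholangiocyte and progenitor markers 10 moved to higher and none to lower, and the summed level had a log2 value of 13.83 to 14.18 in knockouts of 8 months, 12 to 13.21 in wild types of 8 months, 12 to 12.34 in knockouts of 3 months and 11.70 to 12.34 in wild types of 3 months. Cd24a, a surface protein of progenitor cells, gained 2.78 ± 0.38 (adjusted p = 1.79e-05), and the part of bile duct cells in this and in the Tff3 result was not tested. Of 51 oncofetal and carcinoma genes 24 moved to higher and 1 to lower, and the medians were 0.762 at 8 months and -0.0427 at 3 months. Afp, the serum protein of fetal liver, read 7.86, 4.36, 6.60 and 7.42 in knockouts and 3.60, 3.68, 3.58, 3.42 and 3.70 in wild types of 8 months. In younger livers Afp read 4.58, 5.08, 4.66, 4.57 and 5.08 in knockouts and 3.78, 4.13, 3.89, 3.95 and 4.07 in wild types. The genotypes were apart at both ages, but the effect at 3 months of 0.83 ± 0.41 was not called (adjusted p = 0.199), and 1 of the 5 probe sets of Afp ran opposite in direction to the other 4. Pkm, the pyruvate kinase of fetal and dividing cells, gained 1.59 ± 0.17 (adjusted p = 1.01e-06), and Sox4, a transcription factor, 1.20 ± 0.10 (adjusted p = 4.39e-08), with 6 of 8 Sox4 probe sets in that direction. The effect of Afp at 3 months was called with these arrays fitted alone (adjusted p = 0.00109) and without replicate 2 of the knockouts of 8 months (adjusted p = 0.00352), so that it then grew rather than was gained.

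Single genes with the largest gains to higher had various roles. Ubd, a ubiquitin-like protein induced by inflammation, had the largest gain after Cbr3. Ubd read 11.17, 11.38, 7.69 and 10.63 in the knockouts of 8 months and 3.24, 3.26, 3.16, 3.47 and 3.36 in the wild types of 8 months. At 3 months Ubd read 3.68, 3.85, 3.60, 3.53 and 3.62 in the knockouts and 3.29, 3.51, 3.06, 3.76 and 3.49 in the wild types. Knockouts of 8 months were above all other arrays and the other groups lay close together (6.92 ± 0.47, adjusted p = 9.01e-09). Spink1, a trypsin inhibitor of acinar cells, read 9.93, 9.96, 4.92 and 9.49 in knockouts of 8 months and 3.63, 3.60, 3.28, 3.42 and 3.48 in wild types of 8 months. At 3 months Spink1 was 3.41, 3.37, 3.33, 3.67 and 3.29 in knockouts and 6.11, 3.61, 3.44, 3.70 and 5.87 in wild types. Replicate 3 of the older knockouts was far below the other 3 and replicates 1 and 5 of the younger wild types were raised (5.09 ± 0.78, adjusted p = 6.2e-05, against -1.13 ± 0.73, adjusted p = 0.342). The same 2 wild types had high Lcn2, an iron-binding protein of the acute phase, as did replicate 5 of the younger knockouts, and its values at 3 months were 8.69, 7.02, 8.86, 7.55 and 11.35 in knockouts and 11.88, 8.01, 7.23, 8.80 and 11.79 in wild types. In knockouts of 8 months Lcn2 was raised by 3.96 ± 0.87 (adjusted p = 0.00187). Of 19 pancreas genes 3 moved to higher and none to lower (all genes 9.55% and 7.04%), a small count. Their summed level had a log2 value of 9.04 to 10.82 in knockouts of 8 months, 9.03 to 9.52 in wild types of 8 months, 9.01 to 9.27 in knockouts of 3 months and 9.46 to 10.02 in wild types of 3 months. Its part in the Spink1 result was not tested.

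Lipoprotein lipase (Lpl), which adult hepatocytes hardly make, was gained in all 4 older knockouts. Lpl read 11.17, 10.57, 10.62 and 10.02 in the knockouts of 8 months and 6.19, 5.64, 5.94, 5.67 and 6.19 in the wild types of 8 months. At 3 months Lpl read 6.47, 7.52, 6.16, 6.65 and 7.45 in the knockouts and 7.05, 7.01, 6.21, 6.80 and 7.47 in the wild types. The effect was 4.67 ± 0.28 at 8 months (adjusted p = 1.88e-09), and the groups of 3 months overlapped. Scd2, a desaturase that is low in adult liver, gained 3.49 ± 0.29, Anxa13, an annexin of epithelia, 5.64 ± 0.56, and Cxcl14, a chemokine, 3.82 ± 0.70. Cxcl14 was also high in some younger wild types, which read 8.02, 6.40, 4.06, 4.42 and 7.97. Knockouts of 8 months read 7.92, 9.25, 6.99 and 8.01 for it. Lpl is made by adipocytes and macrophages among others. The summed level of 15 adipocyte markers had a log2 value of 11.24 to 11.87 in knockouts of 8 months, 10.67 to 11.51 in wild types of 8 months, 10.31 to 11.03 in knockouts of 3 months and 10.25 to 10.82 in wild types of 3 months, with 2 members moving to higher and 3 to lower (all genes 9.55% and 7.04%), and its part was not tested. Of 42 glutathione and oxidant defence genes 14 moved to higher and 7 to lower. The cystine carrier Slc7a11 gained 3.71 ± 0.60 (adjusted p = 0.000102), and Gclc, the catalytic subunit of the first step of glutathione synthesis, was reversed (0.97 ± 0.17 against -0.92 ± 0.16). Of 33 Toll-like receptor genes 8 moved to higher and 2 to lower, with Tlr2 at 2.01 ± 0.31 at 8 months. Of 15 clade B serpins 3 moved to higher (all genes 9.55%), among them Serpinb9 (2.14 ± 0.24, gained) and Serpinb6a (3.36 ± 0.24 against 1.55 ± 0.23, called at both ages and larger at 8 months). The median of this list was negative (-0.0191). Without replicate 3 of the knockouts of 8 months 22 rather than 14 glutathione and oxidant defence genes moved to higher, and Tlr2 was reversed, as it was with each pair of groups fitted alone.

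Gained effects to lower were led by metabolic genes of the hepatocyte. In cholesterol synthesis 14 of 19 genes had a called difference, all to lower, 13 were gained and 1 was reversed, and the median effect was -1.24 at 8 months and 0.155 at 3 months. Only the knockouts had a called change with age in 11 of the 14, and both genotypes in 3. Pmvk, phosphomevalonate kinase, is an example of the latter. Pmvk read 6.27, 7.15, 8.63 and 8.07 in the knockouts of 8 months and 9.79, 10.02, 10.07, 9.65 and 10.77 in the wild types of 8 months. At 3 months Pmvk read 8.55, 8.93, 9.29, 8.89 and 8.92 in the knockouts and 8.37, 9.20, 8.69, 8.69 and 8.03 in the wild types. Groups of 8 months were apart and those of 3 months overlapped (-2.53 ± 0.35, adjusted p = 2.24e-05, against 0.32 ± 0.33, adjusted p = 0.578). For Pmvk both baselines moved, the knockouts by -1.39 and the wild types by 1.46, unlike most called genes of this list. Mvd and Hsd17b7, further enzymes of the pathway, had effects of -1.56 ± 0.28 and -1.49 ± 0.20 at 8 months. In fatty acid synthesis and desaturation 18 of 27 genes moved to lower and 1 to higher, with 14 gained and 4 reversed. Scd1, the main desaturase of adult liver, was reversed (-0.95 ± 0.14, adjusted p = 3.74e-05, against 0.52 ± 0.13, adjusted p = 0.0132), as was Me1, the malic enzyme that supplies NADPH (-1.97 ± 0.25 against 0.86 ± 0.24). With each pair of groups fitted alone Mvd was reversed, and with its brightest probe set Scd1 was gained. Me1 was gained in 6 settings, which were all 39 arrays, and leaving out replicate 3 or 4 of the knockouts, replicate 1 or 5 of the wild types, or both of the last at 3 months.

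Elovl3, a fatty acid elongase, and Sult2a8, a bile acid sulfotransferase, were gained to lower with a large spread. Sult2a8 read 4.82, 5.02, 7.09 and 8.31 in the knockouts of 8 months and 12.27, 12.07, 12.02, 12.11 and 11.90 in the wild types of 8 months. At 3 months Sult2a8 read 11.56, 11.46, 11.31, 11.80 and 11.34 in the knockouts and 11.82, 12.45, 12.52, 12.33 and 11.82 in the wild types. All knockouts of 8 months were below every other array, replicates 1 and 2 by far (-5.76 ± 0.47, adjusted p = 6.14e-08, against -0.70 ± 0.45, adjusted p = 0.334). Elovl3 read 4.45, 4.23, 7.36 and 8.01 in the knockouts of 8 months and 11.37, 11.73, 11.44, 11.82 and 11.14 in the wild types of 8 months. At 3 months Elovl3 read 10.63, 9.53, 10.26, 10.55 and 9.96 in the knockouts and 11.49, 11.36, 10.94, 10.67 and 11.21 in the wild types. For Elovl3 the effects were -5.49 ± 0.56 (adjusted p = 7.96e-07) and -0.95 ± 0.53 (adjusted p = 0.26), and the genotypes did not overlap at either age. Both genes were already below all wild types at 3 months, so gained here means that the early effect was not called. Fitted on the arrays of 3 months alone, the effects of -0.70 for Sult2a8 and -0.95 for Elovl3 were called (adjusted p = 0.0105 for both). Cyp8b1, the sterol 12-alpha-hydroxylase that sets the ratio of bile acids, changed by -4.31 ± 0.44 (adjusted p = 8.82e-07), and Mup10, a major urinary protein with near-identical copies that probes may not separate, by -4.58 ± 0.42. Of 28 bile acid genes 9 moved to lower and 2 to higher, with 8 gained and 6 kept.

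The methionine cycle, to which GNMT belongs, was altered mainly in the older livers. Of 28 genes 16 moved to lower and 2 to higher, 14 were gained, and the median effect was -0.593 at 8 months and 0.163 at 3 months. Ahcy, which removes the product of GNMT and other methyltransferases, read 11.55, 11.06, 11.96 and 11.77 in knockouts of 8 months and 12.64, 12.50, 12.65, 12.57 and 12.59 in wild types of 8 months. In the younger mice Ahcy read 12.86, 12.78, 12.71, 12.67 and 12.65 in knockouts and 12.72, 12.50, 12.62, 12.57 and 12.69 in wild types. Genotypes were apart at 8 months and overlapped at 3 months (-1.01 ± 0.12, adjusted p = 5.96e-06, against 0.12 ± 0.12, adjusted p = 0.564). Sardh and Dmgdh, which oxidise sarcosine, the product of GNMT, and its precursor dimethylglycine, changed by -1.15 ± 0.14 and -1.29 ± 0.15 at 8 months, against 0.05 ± 0.13 and 0.25 ± 0.14 at 3 months. In the urea cycle and amino acid catabolism 20 of 37 genes moved to lower and none to higher.

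Oat, ornithine aminotransferase, is a marker of hepatocytes around the central vein. Oat read 7.02, 8.10, 10.02 and 9.53 in the knockouts of 8 months and 12.09, 12.14, 12.28, 12.24 and 12.36 in the wild types of 8 months. At 3 months Oat read 12.51, 12.25, 12.03, 12.34 and 11.94 in the knockouts and 11.87, 12, 11.71, 12.18 and 11.70 in the wild types. It was lower in all knockouts of 8 months and overlapped at 3 months (-3.56 ± 0.38, adjusted p = 1.52e-06, against 0.32 ± 0.36, adjusted p = 0.616). Glutamine synthetase (Glul) and the ammonium transporter Rhbg of the same zone changed by -1.43 ± 0.14 and -1.62 ± 0.22. Of 25 pericentral genes 10 moved to lower and 2 to higher, and of 24 periportal genes 11 moved to lower and 4 to higher, so both zones of the lobule were affected. Lipoprotein export genes changed less: Mttp, which loads lipid onto apolipoprotein B, by -0.65 ± 0.10 and Apoc3 by -0.54 ± 0.10. Rhbg was reversed with each pair of groups fitted alone.

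Among effects already present at 3 months that grew, 39 were higher and 56 lower in knockouts of 8 months (69 and 55 without replicate 3 of these knockouts), and several carriers and cytochromes are described here. Slc10a1, the bile salt importer, had the smallest p of all of these. Slc10a1 read 9.44, 9.51, 9.65 and 9.38 in the knockouts of 8 months and 12.31, 12.14, 12.24, 12.36 and 12.33 in the wild types of 8 months. At 3 months Slc10a1 read 12.22, 12.05, 12.30, 12.36 and 12.12 in the knockouts and 12.47, 12.61, 12.70, 12.60 and 12.49 in the wild types. Genotypes were apart at both ages (-2.78 ± 0.08, adjusted p = 3.1e-14, against -0.36 ± 0.08, adjusted p = 0.00377), and the difference was -2.42 ± 0.11. Cyp2c50, an arachidonic acid epoxygenase, read 5.51, 5.85, 6.64 and 7.33 in knockouts and 12.29, 12.18, 12.11, 12.29 and 12.24 in wild types of 8 months. In younger livers Cyp2c50 read 11.20, 11.42, 10.76, 10.95 and 11.23 in knockouts and 11.83, 12.74, 12.44, 12.68 and 12.33 in wild types. Its effect was -5.89 ± 0.26 at 8 months and -1.29 ± 0.25 at 3 months, that of Cyp2c37 -6.44 ± 0.32 and -1.26 ± 0.30, and that of Cyp2c54 -6.10 ± 0.26 and -1.88 ± 0.24. These Cyp2c genes are near-identical neighbours, so their probes may read one another. The organic anion carrier Slco1a1 had similar effects (-5.87 ± 0.34 against -1.51 ± 0.32), and Slc27a5, which activates bile acids, smaller ones (-1.61 ± 0.14 against -0.42 ± 0.13). The difference of Slc27a5 was called in each alternative, but its effect at 3 months was not called in 11, among them centred arrays, quantile normalization, and leaving out any knockout or replicate 1, 4 or 5 of the wild types of 3 months, where it was gained.

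Effects lost between the ages were led by fatty acid oxidation. Of 37 measured genes of fatty acid oxidation and PPAR alpha targets 3 were called higher and 11 lower in knockouts of 8 months. At 3 months 23 were higher and none lower. The difference was called to lower for 23 and to higher for 1, with 12 lost, 8 reversed and 4 gained, and the median effect was -0.238 at 8 months and 0.566 at 3 months. In 3 of the 24 only the knockouts had a called change with age, in 10 both genotypes and in 11 only the wild types. The median change with age was -0.098 in knockouts, where 4 rose and 11 fell, and 0.488 in wild types, where 28 of 37 rose. The effect in knockouts of 3 months was therefore met at 8 months by higher levels in healthy livers, more than by lower levels in knockouts.

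Vnn1, the pantetheinase that splits a breakdown product of coenzyme A, shows this. Vnn1 read 10.87, 11.17, 9.82 and 10.21 in the knockouts of 8 months and 9.34, 9.71, 9.96, 9.71 and 10.18 in the wild types of 8 months. At 3 months Vnn1 read 9.69, 9.19, 9.47, 10.14 and 9.25 in the knockouts and 6.32, 6.50, 6.40, 6.35 and 5.16 in the wild types. The wild types of 3 months were below all other arrays, and the groups of 8 months overlapped. For Vnn1 the effects were 0.74 ± 0.29 at 8 months (adjusted p = 0.0648, 95% interval 0.13 to 1.34) and 3.40 ± 0.27 at 3 months (adjusted p = 7.6e-07), and the wild types rose by 3.64 with age. Aldh3a2, a fatty aldehyde dehydrogenase, had effects of 0.45 ± 0.25 (adjusted p = 0.196) and 2.55 ± 0.23 (adjusted p = 2.3e-06) with a rise of 2.52 in wild types. Ech1, an isomerase of the oxidation of unsaturated fatty acids, had effects of -0.26 ± 0.11 and 0.96 ± 0.10. Wild types of the MAT1A cohort rose with age as well, by 1.78 for Vnn1 (adjusted p = 0.00474), 0.83 for Aldh3a2 (adjusted p = 0.00381) and 0.39 for Ech1 (adjusted p = 0.0207). Such shared rises were not the rule. Of 434 genes for which only the GNMT wild types had a called rise, 29 were called higher in that cohort (6.68%) and 14 lower. For Ppara, the receptor itself, the knockouts moved (-1.05 ± 0.14, adjusted p = 1.56e-05) and the wild types had no called change (-0.34 ± 0.13, adjusted p = 0.0563). That pattern was found in 3 of the 24 genes of the list with a called difference. Ehhadh and Acot2, of peroxisomal oxidation and of acyl-CoA hydrolysis in mitochondria, were kept (0.49 ± 0.14 against 0.88 ± 0.13 and 0.36 ± 0.11 against 0.64 ± 0.10), although the 2 probe sets of Acot2 disagree in direction. The effect of Vnn1 at 8 months was called with quantile normalization (adjusted p = 0.0363), with the filter at the median level (adjusted p = 0.0481), without replicate 3 of the knockouts of 8 months (adjusted p = 0.0163) and without replicate 5 of the wild types of 3 months (adjusted p = 0.0274), where it shrank rather than was lost. Aldh3a2 shrank with each pair of groups fitted alone, and Ech1 was reversed with centred arrays and without replicate 2 of the knockouts of 8 months. Ppara had no called difference without replicates 1 and 5 of the wild types of 3 months (adjusted p = 0.0724), and without these both Vnn1 and Aldh3a2 shrank. Ehhadh was not kept with each pair of groups fitted alone or without replicate 1 of the knockouts of 8 months, nor Acot2 with centred arrays or quantile normalization.

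**Figure D3:**
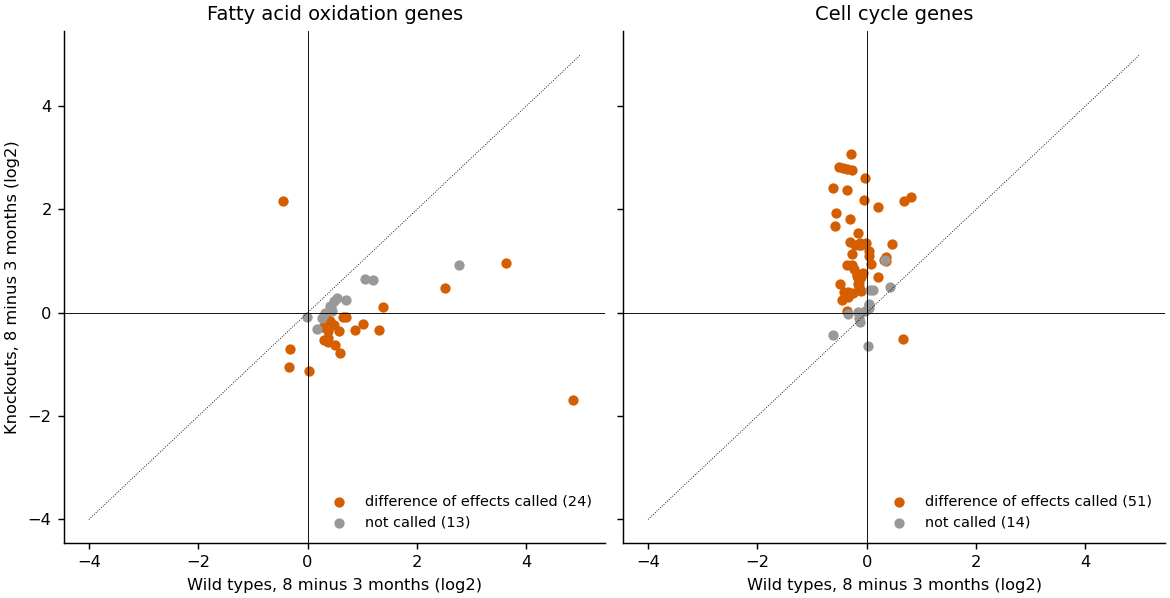
Change between 3 and 8 months (log2) in wild types (x axis) and knockouts (y axis) for each measured gene of fatty acid oxidation (left, 37 genes) and of the cell cycle (right, 65 genes), with the genes whose difference of effects was called in colour and equal change on the dotted line. Fatty acid oxidation genes spread along the wild type axis, with a median change of 0.488 in wild types, and cell cycle genes along the knockout axis, with a median change of 0.925 in knockouts.

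Lipid storage genes followed a like course. Of 26 lipid droplet and PPAR gamma genes 12 were higher in knockouts of 3 months, and 11 had a called difference to lower and 2 to higher. Of these 13 only the wild types had a called change with age in 9 and both genotypes in 4. Cidec, which fuses lipid droplets, was weakened but still higher. Cidec read 8.93, 7.82, 9.95 and 8.65 in the knockouts of 8 months and 5.83, 7.79, 6.54, 6.52 and 7.95 in the wild types of 8 months. At 3 months Cidec read 8.82, 7.95, 7.64, 8.61 and 6.70 in the knockouts and 4.22, 3.13, 3.81, 3.76 and 3.47 in the wild types. Genotypes overlapped at 8 months and were apart at 3 months (1.91 ± 0.47, adjusted p = 0.00464, against 4.27 ± 0.44, adjusted p = 9.17e-06). Cd36, the fatty acid importer, had effects of 1.24 ± 0.30 and 2.85 ± 0.28 and was apart at both ages, and its wild types rose by 2.53 (by 1.01 in the MAT1A cohort, adjusted p = 0.00516). Pparg, the receptor that drives fat storage, was lost (-0.20 ± 0.27, adjusted p = 0.615, against 1.49 ± 0.25, adjusted p = 0.000832).

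Mogat1, a monoacylglycerol acyltransferase, was reversed. Mogat1 read 5.47, 5.55, 4.91 and 5.45 in the knockouts of 8 months and 6.41, 7.03, 6.78, 6.60 and 7.22 in the wild types of 8 months. At 3 months Mogat1 read 7.57, 7.43, 7.26, 7.62 and 5.82 in the knockouts and 4.05, 4.20, 4.28, 3.92 and 3.88 in the wild types. Replicate 5 of the younger knockouts lay below the other 4, and genotypes were apart at both ages and in opposite order (-1.46 ± 0.28, adjusted p = 0.000473, against 3.07 ± 0.26, adjusted p = 1.03e-06), and with age knockouts fell by 1.79 while wild types rose by 2.74. Pltp, the phospholipid transfer protein, did the same. Pltp read 8.58, 7.79, 8.92 and 9.10 in the knockouts of 8 months and 10.40, 10.29, 10.71, 10.29 and 11.05 in the wild types of 8 months. At 3 months Pltp read 10.16, 10.21, 10.43, 10.31 and 9.92 in the knockouts and 8.27, 9.05, 8.20, 9.26 and 8.10 in the wild types. For Pltp the effects were -1.95 ± 0.26 (adjusted p = 1.57e-05) and 1.63 ± 0.25 (adjusted p = 0.000294), without overlap at either age. Its wild types rose by 1.97, and those of the MAT1A cohort by 1.5 (adjusted p = 0.00381). Mfsd2a, a carrier of lysophospholipids, Cyp2c38 and Slc25a20, the carnitine carrier of mitochondria, were reversed likewise (-2.01 ± 0.53 against 1.73 ± 0.50, -3.67 ± 0.33 against 1.43 ± 0.32, and -0.41 ± 0.14 against 0.96 ± 0.13). For Acaa1b, the thiolase of peroxisomes, and Acot1, a cytosolic thioesterase, only the wild types had a called change with age (1.38 ± 0.11 and 2.51 ± 0.25). Mfsd2a was gained rather than reversed in 5 settings (without replicate 1 or 2 of the knockouts, replicate 2 or 5 of the wild types, or replicates 1 and 5 of the wild types of 3 months). Slc25a20 was lost in 6, with the brightest probe set, quantile normalization or pairs of groups alone, and without replicate 1 or 2 of the knockouts or replicate 5 of the wild types of 8 months. Acot1 was gained in 8, among them the replicate block, all 39 arrays and leaving out replicate 1 or 4 of the knockouts or replicate 1 or 5 of the wild types of 3 months, and Acaa1b with all 39 arrays.

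Reversed effects to higher included genes of epithelia and defence. Cdh1, which encodes E-cadherin, read 9.62, 10.30, 10.46 and 9.96 in knockouts of 8 months and 8.35, 8.44, 7.15, 8.16 and 7.06 in wild types of 8 months. At 3 months Cdh1 values were 8.0, 8.34, 7.28, 7.95 and 8.96 in knockouts and 9.32, 9.21, 9.09, 8.90 and 9.68 in wild types. Genotypes were apart at 8 months (2.25 ± 0.32, adjusted p = 2.6e-05) and overlapped at 3 months (-1.13 ± 0.30, adjusted p = 0.0171). Wild types fell by 1.41 with age, and in the MAT1A cohort by 0.81 (adjusted p = 0.00223). Ly6e, a surface protein induced by interferon, and Pla1a, a phospholipase of phosphatidylserine, had effects of 1.79 ± 0.24 against -0.90 ± 0.22 and of 1.42 ± 0.30 against -1.18 ± 0.28. Without replicates 1 and 5 of the wild types of 3 months, which had high Lcn2, the effects of Cdh1, Ly6e and Pla1a at 3 months were not called (adjusted p = 0.0992, 0.0901 and 0.0888), which makes all 3 gained. Cdh1 was gained without replicate 3 of the knockouts of 3 months too.

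Other lost effects were of mixed function. Txnip, the inhibitor of thioredoxin that glucose induces, read 8.78, 9.36, 9.59 and 9.11 in knockouts of 8 months and 9.43, 9.33, 9.32, 9.80 and 9.56 in wild types of 8 months. In younger mice Txnip read 9.28, 8.60, 9.54, 9.41 and 9.16 in knockouts and 7.24, 7.64, 7.66, 7.83 and 7.33 in wild types. Knockouts did not change with age by a called amount (0.01 ± 0.18, adjusted p = 0.959) and wild types rose by 1.95, with groups apart only at 3 months. Tubb2a, a beta tubulin, Gstt3, a glutathione transferase, and Cyp17a1, a steroid hydroxylase, were higher in knockouts of 3 months by 2.24 ± 0.18, 1.70 ± 0.25 and 2.85 ± 0.74. Without replicate 3 of the knockouts of 8 months the effect of Cyp17a1 at that age was called at -2.79 (adjusted p = 0.0028), which makes it reversed. Junb, an immediate early transcription factor, was lost with an uncalled effect of -1.03 ± 0.39 at 8 months (adjusted p = 0.0532) and one of 1.15 ± 0.36 at 3 months (adjusted p = 0.0447), where the groups overlapped. Junb changed its class in 22 of 29 settings, 14 of them with 1 array left out, to reversed, gained or neither effect called. Gstt3 was reversed in 7, among them centred arrays, quantile normalization, and leaving out replicate 3 of the knockouts or replicate 2 of the wild types of 8 months or replicate 5 of the knockouts of 3 months. Cyp17a1 was reversed with all 39 arrays.

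Among lost effects to lower Moxd1, a copper monooxygenase, stood out. Moxd1 read 8.15, 3.67, 5.42 and 4.28 in the knockouts of 8 months and 5.08, 3.83, 3.58, 4.32 and 3.80 in the wild types of 8 months. At 3 months Moxd1 read 6.43, 4.34, 4.36, 7.90 and 8.12 in the knockouts and 10.91, 11.14, 8.63, 10.95 and 11.43 in the wild types. All wild types of 3 months were above the knockouts of their age, and the groups of 8 months overlapped (1.26 ± 0.87, adjusted p = 0.309, against -4.38 ± 0.82, adjusted p = 0.00177). Wild types fell by 6.49 with age (adjusted p = 4.5e-05), whereas the change of -4.24 in the MAT1A wild types was not called (adjusted p = 0.0815). Apcs, the acute phase protein serum amyloid P, Dnajc12, a co-chaperone, and Enho, which encodes adropin, changed by -1.57 ± 0.38, -2.0 ± 0.38 and -1.91 ± 0.25 at 3 months, and for these 3 genes too the wild types moved. Only 2 of the 4 probe sets of Enho have the direction of their mean. Of 35 acute phase and complement genes 14 were lower in knockouts of 3 months and none higher, 14 had a called difference to higher and 2 to lower, and 7 were lost. Tifa, an adaptor of inflammatory signalling, and Dipk1a changed by -1.59 ± 0.29 and -2.18 ± 0.33 at 3 months, and in these the knockouts moved (1.53 ± 0.31 and 1.70 ± 0.35). Without replicates 1 and 5 of the wild types of 3 months 8 rather than 14 acute phase and complement genes moved to higher, and the differences of Apcs and Enho were not called (adjusted p = 0.0921 and 0.0605). Leaving out replicate 4 of the knockouts of 8 months, Apcs had no called difference and Enho shrank, as Enho did with all 39 arrays.

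Kept effects numbered 716, of which 469 were higher and 247 lower at both ages. The 95% interval of the difference lay within 1 of 0 on the log2 scale for 647 of them (90.4%), and the median margin on either side of the difference was 0.339. This interval is not adjusted for the number of genes. For the typical gene smaller changes were therefore not detectable, and somewhat larger ones could miss the call too. The median size of the kept effects was 0.55 at 8 months and 0.493 at 3 months. The limit of 1 is wider than these, so an interval within it does not show that an effect stayed equal. The effect was larger at 8 months in 432 of the 716. Hsd3b5, a steroid reductase of male liver, had the largest kept effect. Hsd3b5 read 3.64, 3.11, 3.95 and 3.52 in the knockouts of 8 months and 11.31, 10.93, 9.88, 10.94 and 9.31 in the wild types of 8 months. At 3 months Hsd3b5 read 6.29, 3.41, 3.60, 7.72 and 6.16 in the knockouts and 11.77, 12.49, 12.18, 11.88 and 11.89 in the wild types. Genotypes were apart at both ages, with replicates 2 and 3 of the younger knockouts as low as the older ones (-6.92 ± 0.65, adjusted p = 2.98e-07, against -6.61 ± 0.61, adjusted p = 2.3e-06). All wild types of 8 months read lower for Hsd3b5 than those of 3 months. Its knockouts of 8 months lay below the lowest array median (4.154). The interval of the Hsd3b5 difference was -2.19 to 1.56, so neither growth nor shrinkage of a sizeable amount can be told. Hsd3b2, of the same family and with similar sequence, was kept within a narrower interval (-2.61 ± 0.24 against -2.62 ± 0.23, interval of the difference -0.69 to 0.72). Among 24 male-biased liver genes 12 were lower in knockouts of 8 months and 16 in knockouts of 3 months, none was higher at either age, and the medians were -0.687 and -0.723. Of these genes 4 moved to higher and 5 to lower (all genes 9.55% and 7.04%). The labels of these arrays give no sex. Of 4 measured sex chromosome transcripts 1 was called higher in knockouts of 3 months and none was called at 8 months. None of them had a called difference, and the part of sex was not tested.

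Slc22a7, an organic anion carrier, changed by -3.52 ± 0.40 and -4.14 ± 0.38, Slc3a1, a subunit of the cystine carrier, by -2.74 ± 0.45 and -3.38 ± 0.43, and Nox4, an NADPH oxidase, by -1.93 ± 0.37 and -2.72 ± 0.35 at 8 and 3 months. Kept higher was H2-Bl, an MHC class I gene with close copies. H2-Bl read 7.0, 9.12, 7.67 and 7.43 in the knockouts of 8 months and 5.56, 5.66, 5.20, 5.57 and 5.58 in the wild types of 8 months. At 3 months H2-Bl read 8.77, 8.76, 8.68, 8.87 and 8.61 in the knockouts and 5.33, 5.58, 6.89, 6.06 and 6.02 in the wild types. Genotypes were apart at both ages (2.29 ± 0.32 against 2.76 ± 0.30, interval of the difference -1.39 to 0.44). H2-Bl lies in the MHC on the chromosome of Gnmt, where a segment of another strain can travel with a knockout allele, which was not tested. Within 20 Mb of Gnmt 21 of 480 genes were kept (4.38%), on the whole chromosome 44 of 834 (5.28%) and over all genes 3.94%, and 10 of the 480 were reversed (2.08%, all genes 0.945%). Prss8, a membrane serine protease, Pla2g7, which inactivates platelet-activating factor, and Lad1, of anchoring filaments, were kept at 3.05 ± 0.39 against 1.73 ± 0.37, 2.28 ± 0.41 against 1.60 ± 0.38 and 2.49 ± 0.31 against 1.31 ± 0.30. Lgals1, a galectin, read 1.34 ± 0.42 against 2.75 ± 0.39, and its wild types rose by 2.62, so a kept effect did not need a still baseline. For Prss8, Lad1 and Lgals1 the difference was called when all 39 arrays shared 1 variance estimate. Anxa5, a phosphatidylserine-binding protein, and Abcc3, the export pump for bile salts, were kept at 1.33 ± 0.18 against 0.97 ± 0.17 and 0.90 ± 0.24 against 1.18 ± 0.23. Prss8 and Lad1 grew, and Nox4 shrank, without replicate 3 of the knockouts of 8 months. Lad1 grew with the replicate block, and Abcc3 was not kept with each pair of groups fitted alone. Lgals1 was not kept without replicate 1 or 4 of the knockouts or replicate 2 of the wild types of 8 months, or without replicate 1 of the wild types of 3 months.

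Healthy livers were not a still reference. Between the ages 3583 genes were called higher and 4267 lower at 8 months in knockouts (19.7% and 23.5% of all genes), and 2485 higher and 3587 lower in wild types (13.7% and 19.7%). Of the 3019 genes with a called difference only the knockouts had a called change with age in 1818, only the wild types in 643 (21.3%), both in 480 and neither in 78. Where both changed, they went in opposite directions for 319 genes and in the same direction for 161. For 817 genes (27.1%) the change of the wild types was the larger one.

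The share depended on the class. Among gained effects to higher the knockouts alone moved in 1094 of 1389 (78.8%) and the wild types alone in 97 (6.98%), and among gained effects to lower these were 344 of 732 (47.0%) and 232 (31.7%). Of 420 lost effects the knockouts alone moved in 158, the wild types alone in 194 (46.2%) and both in 58. Of 172 reversed effects both moved in 88, in opposite directions for 86 of them, the knockouts alone in 67 and the wild types alone in 17. Of 716 kept effects 186 had a called change with age in both genotypes and 327 in neither.

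**Figure D4:**
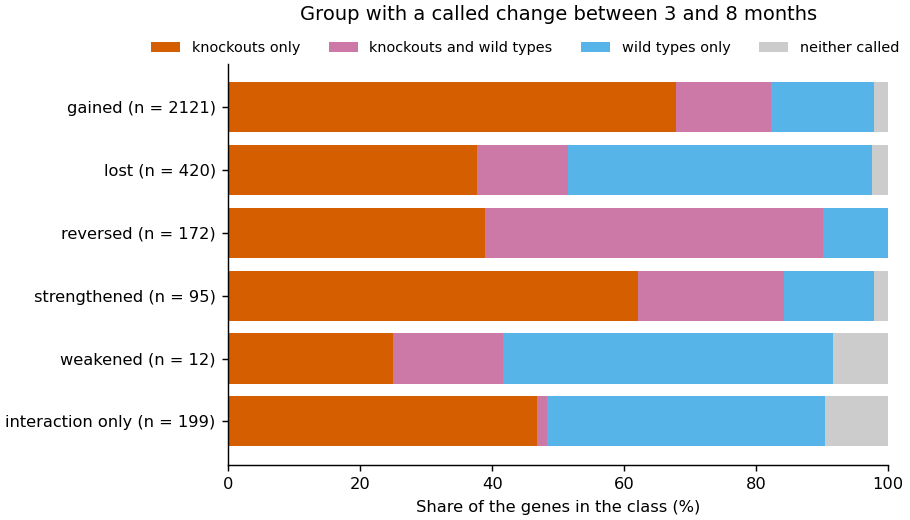
For each class with a called difference of effects, the share of its genes (x axis, percent) in which only knockouts, both genotypes, only wild types or neither had a called change between 3 and 8 months. Knockouts alone make up most of the gained class (1438 of 2121), wild types alone the largest part of the lost class (194 of 420) and both genotypes the largest part of the reversed class (88 of 172).

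For some gained effects only the healthy livers thus had a called change with age. Ppp1r3g, a subunit that directs protein phosphatase to glycogen, was gained to lower. Ppp1r3g read 4.48, 6.98, 7.88 and 8.21 in the knockouts of 8 months and 11.35, 9.79, 10.90, 11.20 and 11.16 in the wild types of 8 months. At 3 months Ppp1r3g read 8.56, 8.05, 8.42, 8.78 and 6.14 in the knockouts and 5.23, 7.34, 8.21, 8.68 and 5.54 in the wild types. Wild types rose by 3.88 with age (adjusted p = 0.000844), and in knockouts the change of -1.10 ± 0.77 was not called (adjusted p = 0.25). In the MAT1A wild types it rose by 3.40 (adjusted p = 0.0114). Olig1, a transcription factor known from oligodendrocytes, had a rise of 2.50 in wild types, and Rab30, a GTPase of the Golgi, of 2.74, against 0.61 (adjusted p = 0.168) and 0.40 (adjusted p = 0.0411) in the MAT1A wild types. Olig1 grew rather than was gained with the replicate block and with all 39 arrays.

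The wild types of the MAT1A cohort, of the same strain and ages on separate arrays, gave a further view on the 643 genes whose wild types alone moved. In this cohort 198 genes were called higher and 316 lower with age (1.09% and 1.74% of all genes). This count of 514 rests on single arrays, as it was between 194 (without replicate 3 of 3 months) and 928 (without replicate 1 of 3 months) when 1 of the 10 was left out. Of 434 genes that rose in GNMT wild types, 29 were called higher there (6.68%) and 14 lower, and 265 had the same sign (61.1%, all genes 47.9%), with a median of 0.046 against 0.583 in the GNMT wild types. Of 209 that fell, 14 were called lower there (6.70%) and none higher, and 137 had the same sign (65.6%, all genes 52.1%), with a median of -0.0442 against -0.452. The medians were thus smaller in the other cohort. However, the genes were chosen for a called change in the GNMT wild types, which by itself favours larger values there. How far the cohorts differ can therefore not be read from these medians. Age, array run and cohort cannot be told apart here. Aldh3a2, Ech1, Cyp4a14, Ppp1r3g, Rab30 and Cidea (1.26, adjusted p = 0.0458) are among those that rose in both. They are examples of the few genes called in both cohorts and do not stand for the 434.

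The clock list moved in 1 direction too. Of 19 clock genes 7 had a called difference, all to lower, and the median effect was -0.33 at 8 months and 0.208 at 3 months. The time of day of sampling is not given in the labels, and its part in the wild type baseline was not tested. Neutrophil and erythroid markers had summed log2 levels of 9.61 to 10.47 in knockouts of 8 months, 10.57 to 11.12 in wild types of 8 months, 9.60 to 10.36 in knockouts of 3 months and 10.62 to 12.10 in wild types of 3 months, so knockouts were below wild types at both ages, and 1 of 17 had a called difference.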

How the data were processed

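Total RNA of 39 mouse livers was hybridised to Affymetrix arrays, 1 array per sample, and the 19 arrays of the GNMT cohort were analysed here. The authors deposited log2 expression values computed by RMA (robust multi-array average, which corrects background, normalizes by quantiles and summarises probes) for 45101 probe sets. The submitters' processing notes name GCOS and RMA without versions. Arrays give no read depth, so their number limits the precision. Array medians lay between 4.154 and 4.326 in the GNMT cohort and between 4.908 and 5.039 in the MAT1A cohort, so levels were not set across cohorts. A second deposited table, of log2 ratios of knockouts over wild types that the authors computed, was not used.

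Of the probe sets 34958 list 1 gene in the platform annotation and were averaged per gene, as in the methods of the study, to 18194 genes. The 932 probe sets with several genes and the 9211 with none were tested apart. No array was removed and no low values were filtered. Groups came from the labels. The means of the 4 groups were fitted with limma (version 3.58.1, R 4.3.3, lmFit and eBayes) on 19 arrays, and 5 contrasts were tested, namely the knockout effect at each age, their difference, and the age change of each genotype. All adjusted p-values are from limma with Benjamini-Hochberg adjustment over all genes, two-sided, called under 0.05. The age change of the MAT1A wild types was fitted on 10 arrays. Effects at both ages and their difference share arrays, so the classes are not independent of one another. Scripts were tested on simulated data. Python 3.11.15 with pandas 2.3.3, numpy 2.4.6 and matplotlib 3.10.9 made tables and figures. Start site windows are from RefSeq (GRCm38.p6) for 14369 genes.

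The members and the 40 gene lists (1171 of 1311 entries measured) were chosen with earlier results of these data known. The rule for named genes took fixed genes, the genes with the largest difference in each class and direction, those with the largest change of wild types, and up to 4 members with the lowest p and 2 kept members of each list. It named 259 genes. The 109 genes described are a choice made after their values were seen, in which Cdk1, Ifit1 and Irgm1 lie outside the rule and were added for their start site windows. Alternatives were the replicate number as a block, the brightest probe set, a filter at the median level, centring, quantile normalization, an intensity trend with robust moderation, array weights per group, all 39 arrays, each pair of groups alone, a minimum change of 1, and leaving out each array. The replicate numbers were checked and do not pair the samples.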

Additional observations from a re-analysis of the deposited data

Results flagged for a closer look

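The knockout effect differed between 8 and 3 months for 3019 genes by the test of the difference itself. Among the genes described, the difference (log2, effect at 8 months minus that at 3 months) was positive for these gained effects: Cbr3 7.02, Ubd 6.69, Spink1 6.23, Anxa13 5.82, Cxcl14 5.08, Lcn2 4.81, Lpl 4.72, Slc7a11 3.72, Scd2 3.61, Cdk1 3.25, Birc5 3.15, Lgals3 3.10, Cdc20 3.03, Cd24a 2.97, Tlr2 2.53, Serpinb9 2.44, Oas1a 2.31, H2-Aa 2.21, Afp 2.13, Col4a1 2.04, Col4a2 1.83, Pkm 1.62, Ifi27 1.55, Pdgfrb 1.47, Aurkb 1.39, Sox4 1.21 and Iigp1 1.10. It was negative for these: Sult2a8 -5.06, Ppp1r3g -4.98, Elovl3 -4.54, Mup10 -4.04, Oat -3.88, Cyp8b1 -3.81, Cd163 -3.32, Olig1 -3.32, Pmvk -2.85, Rab30 -2.35, Mvd -2.20, Rhbg -1.98, Hsd17b7 -1.85, Dmgdh -1.54, Glul -1.25, Mat1a -1.23, Sardh -1.20, Ahcy -1.12, Mttp -0.82 and Apoc3 -0.71.

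Among lost effects the difference was -6.53 for Cyp4a14, -4.66 for Cyp17a1, -2.67 for Vnn1, -2.41 for Gstt3, -2.19 for Junb, -2.10 for Aldh3a2, -1.99 for Tubb2a, -1.94 for Txnip, -1.70 for Pparg, -1.22 for Ech1 and -0.71 for Ppara, and 5.64 for Moxd1, 2.30 for Dnajc12, 2.18 for Dipk1a, 1.91 for Apcs, 1.84 for Tifa and 1.34 for Enho. Among reversed effects it was 9.61 for Tff3, 3.39 for Cdh1, 3.04 for Ifi47, 2.69 for Ly6e, 2.61 for Mpeg1, 2.60 for Pla1a, 2.0 for Ifit1, 1.89 for Gclc and 1.29 for Irgm1, and -6.91 for Cidea, -5.10 for Cyp2c38, -4.53 for Mogat1, -3.74 for Mfsd2a, -3.58 for Pltp, -2.83 for Me1, -2.03 for Acot1, -1.46 for Scd1, -1.37 for Slc25a20 and -1.27 for Acaa1b. Of effects called with the same sign at both ages it was -5.18 for Cyp2c37, -4.60 for Cyp2c50, -4.35 for Slco1a1, -4.22 for Cyp2c54, -2.42 for Slc10a1, -1.41 for Gnmt, -1.19 for Slc27a5 and 1.81 for Serpinb6a, which grew, and -2.36 for Cidec, -1.61 for Cd36 and -0.90 for Gstt2, which shrank. The shrinkage of Gstt2 was not called in 16 alternative settings, among them the replicate block (limma, adjusted p = 0.0687), quantile normalization (adjusted p = 0.0934) and 12 single arrays left out.

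Single arrays stood far from their group by Dixon's ratio in 25 of 436 groups of values (5.73%), where chance gives about 1 in 20. Replicate 5 of the knockouts of 3 months was the highest of its group for Cxcl14 (6.38), Col4a2 (6.82), Hsd17b7 (7.55), Ppara (10.31) and Ly6e (7.69) and the lowest for Ppp1r3g (6.14), Gstt3 (8.41) and Mogat1 (5.82), and replicate 4 was the lowest for Lgals1 (9.12). In knockouts of 8 months replicate 3 was the lowest for Spink1 (4.92) and Mogat1 (4.91), and replicate 4 the highest for Cyp2c54 (5.70) and Slco1a1 (5.35). In wild types of 8 months these were Ppp1r3g (9.79, replicate 2), Pla1a (8.15, replicate 3), H2-Bl (5.20, replicate 3), Gclc (11.19, replicate 4) and Acaa1b (13.94, replicate 5). In wild types of 3 months they were Cidea (5.34, replicate 1), Gclc (11.05, replicate 2), Moxd1 (8.63, replicate 3), Tifa (5.78, replicate 3), Mup10 (11.92), Vnn1 (5.16) and Slc25a20 (9.08), the last 3 on replicate 5.

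Of the 10143 probe sets that list several genes or none, which no comparison above uses, the difference of the effects was called for 387, with 242 higher and 145 lower.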

How the results depend on the processing

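The 4 classes and the 5 contrasts kept within 1.5 times their counts under most alternatives. Exceptions were the filter at the median level, with 4379 knockout and 3205 wild type age changes called (7850 and 6072 without it, with fewer genes tested), quantile normalization with 4024 wild type age changes, and reversed effects, which numbered 280 with centred arrays, 335 with all 39 arrays, and 104 without both wild types of 3 months that had high Lcn2, against 172 (the last setting was chosen after seeing the data). The cause of these was not tested. With a minimum change of 1 on the log2 scale there were 677 gained, 44 lost, 16 reversed and 47 kept effects, and wild types alone moved in 95 of the genes with a called difference (643 without it). Of 420 lost effects 266 stayed lost with quantile normalization, and of 172 reversed ones 114 stayed reversed. Fewer kept their class without both wild types of 3 months that had high Lcn2, namely 231 of the lost (55%) and 93 of the reversed effects (54.1%).

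Leaving out 1 array at a time gave 2636 to 3435 called differences, 4468 to 5023 effects at 8 months, 1626 to 2475 at 3 months, 6765 to 7891 knockout and 4693 to 6579 wild type age changes, 1877 to 2373 gained, 301 to 457 lost, 125 to 267 reversed and 575 to 789 kept effects, and 481 to 712 genes in which wild types alone moved. The 267 reversed effects were found without replicate 3 of the knockouts of 8 months. The MAT1A wild types gave 194 to 928 called age changes, more than 1.5 times away from 514 for 8 of the 10 arrays: 928 without replicate 1, 217 without replicate 2, 194 without replicate 3, 340 without replicate 4 and 260 without replicate 5 of 3 months, and 263, 243 and 287 without replicates 1, 2 and 3 of 8 months.

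With the replicate number as a block there were 2022 gained, 360 lost, 163 reversed and 636 kept effects, and no count moved by over 1.5 times. Deviations of arrays with the same number had a mean correlation of -0.00477 over 27 pairs, against 0.00121 over 108 pairs of different number, and 5 of 19 arrays were nearest to one of their own number, so the numbers only name the arrays. For the 109 genes described no called effect changed sign in any alternative: of 3046 refits of the difference 21 lost and 11 won a call, of 3155 refits of the effect at 8 months 26 lost and 33 won one, and of 3155 at 3 months 73 lost and 20 won one. Of these genes 42 changed their class in at least 1 of up to 29 settings, by class 10 of 47 gained, 10 of 17 lost, 13 of 19 reversed and 7 of 14 kept ones.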

Other observations

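Further gene groups had called differences between the ages, some of them at about the share of all genes. Of 33 genes of glucose metabolism 10 had a called difference to lower and 4 to higher (8 without replicate 3 of the knockouts of 8 months), and the median knockout effect was -0.277 at 8 months and -0.0364 at 3 months. Of 44 genes of xenobiotic metabolism 14 moved to lower and 4 to higher, and of 26 retinol genes 6 to lower and 1 to higher. Of 28 female-biased liver genes 7 moved to lower and 3 to higher. In contrast 2 of 35 MAPK and immediate early genes moved, both to lower, and of 40 stress response genes 4 moved to higher and 5 to lower (1 to lower without replicates 1 and 5 of the wild types of 3 months), although 16 of these 40 were lower in knockouts of 8 months. Of 35 p53 targets 5 moved to lower and 2 to higher. At 8 months 11 of them were higher and 6 lower in knockouts, and at 3 months 6 were higher and none lower. Of 28 genes of prostanoids and arachidonic acid 7 moved to higher and 2 to lower, and of 29 endothelial markers 5 moved to lower and 2 to higher. Over all genes the difference was called to higher for 9.55% and to lower for 7.04%, and several of the smaller counts above lie near these shares. For the effect itself 16.9% of all genes were higher and 10.7% lower in knockouts of 8 months. At 3 months 7.37% were higher and 4.93% lower.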
